A study of Danio rerio with 9 samples.

Results

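Among the chromatin contacts of regenerating zebrafish fins were 696 that were listed both 1 and 4 days post amputation (dpa) and not in uninjured fins. Here they are called the gained contacts. Each joins 2 bins of 10 kb, its anchors, on the same chromosome. They were chosen by calls alone: from the 1 dpa list of 18712 contacts, those with at most 200 kb between the anchor starts were taken, then those with a counterpart in the 4 dpa list and none in the 0 dpa list. A counterpart has both anchor starts within 10 kb. Of the 15530 contacts of at most 200 kb listed at 1 dpa, the 696 made up 4.48%, and the 3 lists together held 43117 distinct bin pairs. Since presence at 1 and 4 dpa and absence at 0 dpa chose the members, neither is a finding, and the strength of the members is a description.

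The samples were caudal fins of adult zebrafish of the outbred Ekkwill strain, wild type, aged about 6 to 8 months and amputated at 50% of fin length. The groups were uninjured fins taken freshly at 0 dpa, fins at 1 dpa and fins at 4 dpa, with 3 pools of 10 fins in each. The measurement was HiCAR, in which cross-linked nuclei are tagged in open chromatin by Tn5 transposase and the tag is ligated to nearby DNA cut by the enzyme CviQI. Each group had 1 deposited list of called contacts, so every value below is 1 value per time point, and the spread between the 3 pools could not be measured. A pool holds all cell types of the fin stump or regenerate, and a contact in more cells cannot be told apart from a more frequent contact in the same cells. As the tag enters open chromatin, more open anchors cannot be told apart from a more frequent contact either. Whether the authors' background model allows for openness is not given.

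In the zebrafish fin, amputation is followed by closure of the wound by epidermis and by the formation of a blastema, a mass of proliferating cells under the wound epidermis, from which the lost bone rays, vessels and skin grow back. Early on the wound epidermis is in place and the blastema is starting to form, and later the outgrowth of the regenerate is under way. Enhancers, stretches of DNA that raise the activity of a promoter at a distance, are known to switch on in this tissue after injury, and contacts between open sites are one way to look for the promoters that they reach. No gene is named below, because no annotation of the build of the lists, danRer11, was used, and positions are 1-based in that build.

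The strength of a contact is given as its observed count over the count expected under the authors' background model. Across the 696 gained contacts at 1 dpa, counts ran from 12 to 60 with a median of 25, and strength ran from 2.11 to 16.6 with a median of 3.60. At 4 dpa, 482 of them (69.3%) were listed in the same bins, with counts from 13 to 85, a median of 31 and strengths from 2.01 to 12.7. The other 214 had their counterpart 1 bin away. In some cases that 4 dpa contact was also the counterpart of another gained contact, so the 696 are not as many separate contacts at 4 dpa. The median strength of the 696 at 1 dpa lay between those of the comparison sets. Contacts of at most 200 kb called at all 3 times, 12544 in number, had a median strength of 3.91 at 1 dpa, and the 1065 called at 1 dpa alone had 3.23.

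The span of a contact moves with its strength. Gained contacts and those called at all times were therefore set side by side within span classes. Contacts called at 1 dpa alone had a median span of 30 kb, against 70 kb for gained contacts. Their strength was not compared within span classes, so the difference from them given above is not matched for span. At 20 kb the median strength at 1 dpa was 2.88 for gained contacts and 3.0 for those called at all times. From 60 to 100 kb it was 3.70 against 3.96, and from 160 to 200 kb it was 4.83 against 5.22. In each of the 5 span classes the gained contacts had the lower median. Contacts on the same chromosome share bins and libraries, and contacts that went uncalled at 0 dpa were by that rule more likely to be weak, so no test was made of these medians.

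How far a gained contact stood above what could be called on its own in uninjured fins was read from the 0 dpa list itself. For each contact, the lowest count was taken among 0 dpa contacts with no called neighbour (singletons) and with an expected count within 5% of its own. Singletons at 0 dpa had an FDR of at most 9.98e-05, while the whole 0 dpa list went up to 0.00999. Contacts with called neighbours could thus be listed at lower counts, so this limit holds for singletons only. The sets compared below also differed in their share of singletons. Expected counts were first brought to 0 dpa by the median ratio of shared contacts of the same span, which lay between 0.953 and 0.967 for 1 over 0 dpa. The 1 dpa count of the gained contacts was on the median 1 times that limit. It was at or above it for 406 of 696 (58.3%) and at least 1.5 times it for 10 (1.44%). The shares at or above the limit were 63.5% for contacts called at 1 dpa alone, 57.8% for those called at 0 and 1 dpa only and 65.5% for all 1 dpa contacts of at most 200 kb. At 1.5 times the limit they were 0.0940%, 2.12% and 13.6%, and 16.6% for contacts called at all times. The contacts called at 0 and 1 dpa only, which were listed in uninjured fins, thus had shares close to those of the gained contacts. For all gained contacts but those 10, a 0 dpa count lower than that at 1 dpa by 1.5-fold or more would have been under the limit for a singleton. Whether such a pair was tested at all in uninjured fins is not shown by the lists.

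Naming those 10 contacts followed from their values. The contact at the highest multiple lay on chromosome 12 between 46210001–46220000 and 46240001–46250000, with 25 counts at 1 dpa and 13 at 4 dpa. Its limit of 12 was also the lowest count in the whole 0 dpa list. Another, on chromosome 15, linked 12460001–12470000 to 12540001–12550000 with 34 counts at 1 dpa and 47 at 4 dpa, against a limit of 22. On chromosome 9, the pair 28940001–28950000 and 29030001–29040000 had 41 counts at 1 dpa, 44 at 4 dpa and a limit of 26. It was the only contact of the 10 with both of its anchor bins listed at 0 dpa. On chromosome 12, the pair 34270001–34280000 and 34330001–34340000 had 45 counts against a limit of 30. It was the only contact of the 10 whose cluster of neighbouring calls at 1 dpa had a 0 dpa counterpart.

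Gained contacts were of similar strength at 1 and 4 dpa. Over the 482 in the same bins, the median ratio of 4 over 1 dpa strength was 0.917 (95% interval 0.903 to 0.938, which treats contacts as independent), the middle range was 0.826 to 1.04 and 155 were stronger at 4 dpa. Only 2 (0.415%) were at least 1.5-fold stronger, where the share over all contacts of at most 200 kb in the same bins was 1.96%. Another 17 (3.53%) were at least 1.5-fold weaker, against 5.45% over all. Both shares were lower than the background shares. Passing the calling limits at both times bounds the ratio in both sets, and why the shares differ was not tested. The direction depended on the scale. Raw counts were higher at 4 dpa for 390 of the 482, with a median ratio of 1.2. The expected count of these pairs had a median 4 over 1 dpa ratio of 1.29, so the 2 scales differ in direction. By raw counts, 52 (10.8%) were past 1.5-fold upward and 1 (0.207%) past it downward, where the shares over all contacts in the same bins were 15% and 0.929%. All contacts of at most 200 kb moved in the same way, with a median strength ratio of 0.938 and a median count ratio of 1.19.

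**Figure D1:**
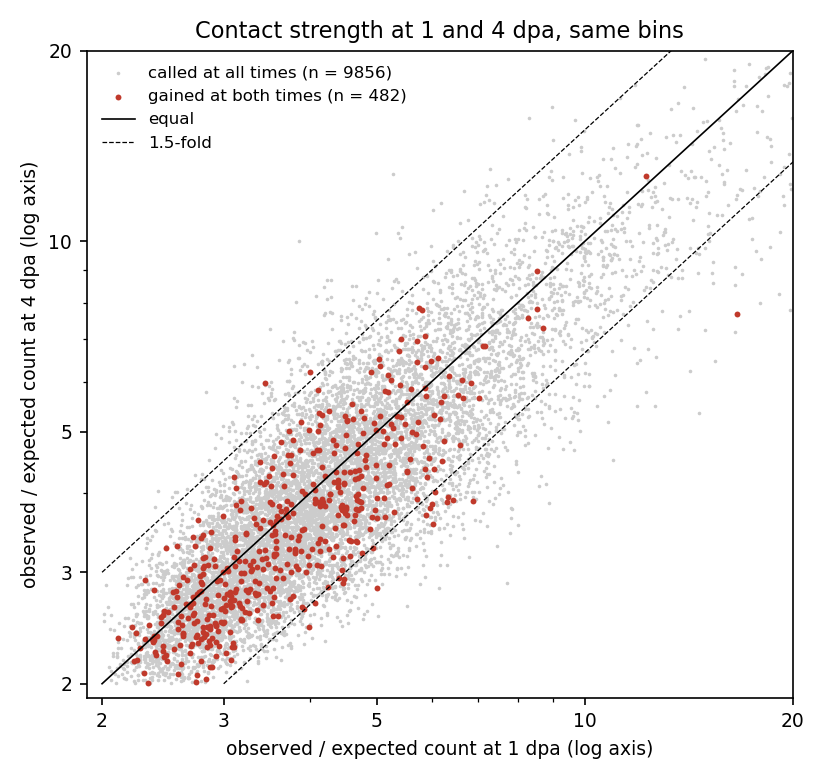
Observed over expected count at 1 dpa (x, log axis) and 4 dpa (y, log axis) for contacts of at most 200 kb listed in the same bins at both times. Red points are the 482 gained contacts, grey points the 9856 called at all times (117 of these lie past the axes at 20), the solid line marks equality and the dashed lines 1.5-fold. Most red points lie below a strength of 5 and between the dashed lines.

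Counting error covered the ratio of nearly every single contact. The exact conditional interval of the ratio, which covers counting error only, left out 1 for 3 of the 482 (0.622%), against 3.49% of all contacts in the same bins. On chromosome 5, the pair 24570001–24580000 and 24670001–24680000 went from 22 counts to 47 by 4 dpa, a ratio of 1.74 (1.03 to 3.03). On chromosome 12, the pair 46210001–46220000 and 46240001–46250000 went from 25 counts to 13, a ratio of 0.463 (0.218 to 0.941). On chromosome 7, the pair 34830001–34840000 and 34900001–34910000 went from 36 to 26 counts, a ratio of 0.567 (0.329 to 0.965). Being picked as extremes of 482, these 3 have intervals that are too narrow for that choice.

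The remaining extremes had intervals that held 1. The next highest ratios were 1.55 (0.890 to 2.78) on chromosome 16 between 26860001–26870000 and 27010001–27020000, 1.42 (0.689 to 3.05) on chromosome 2 between 45850001–45860000 and 46030001–46040000, and 1.37 (0.781 to 2.45) on chromosome 18 between 16940001–16950000 and 17010001–17020000. The first of these extended an anchor that was already busy: its left bin had 8 called contacts in uninjured fins, 10 at 1 dpa and 14 by 4 dpa, while its right bin had 0, 2 and 2. The next lowest were 0.564 (0.256 to 1.20) on chromosome 23 between 5010001–5020000 and 5200001–5210000, and 0.593 (0.343 to 1.01) on chromosome 15 between 44000001–44010000 and 44040001–44050000.

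Each bin of the 10 strongest gained contacts had at most 2 called contacts at 0 dpa, 3 at 1 dpa and 4 at 4 dpa. Over all gained contacts, the 2 bins together had medians of 1, 3 and 4. Few contacts at the bins were thus not particular to the strongest. The 10 were ranked by the lower of the 1 and 4 dpa strengths, among the 350 with at least 20 counts at both times. The first, on chromosome 12, linked 48890001–48900000 to 49090001–49100000 with 20 counts at 1 dpa and 23 at 4 dpa, which was 8.54 (5.22 to 13.2) and 8.97 (5.69 to 13.5) times the expected count. Neither of its bins was an anchor at 0 dpa, and the nearest 0 dpa contact had an anchor shift of 70 kb. A chromosome 22 contact linked 36530001–36540000 to 36660001–36670000 with 22 and 24 counts, at 8.52 (5.34 to 12.9) and 7.81 (5.00 to 11.6) times expected. Its bins were also absent at 0 dpa. One on chromosome 5 linked 45900001–45910000 to 46070001–46080000 with 21 and 25 counts, at 8.26 and 7.57 times expected, and only its right bin was listed at 0 dpa, with 1 contact.

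Next came contacts on chromosome 18 (18660001–18670000 and 18860001–18870000, 6.37 times expected at 1 dpa and 6.13 at 4 dpa), chromosome 23 (9970001–9980000 and 10130001–10140000, 6.84 and 5.97) and chromosome 6 (12330001–12340000 and 12490001–12500000, 5.88 and 6.33). Among the 10 ranked highest, the chromosome 6 contact stood farthest from anything called in uninjured fins, with a nearest 0 dpa contact 200 kb away, and it was the sole contact of both of its bins at 1 and at 4 dpa. The chromosome 15 contact between 12460001 and 12550000 named above had the highest counts of the 10 and the same strength at both times, 5.87. The others were on chromosome 9 (55600001–55610000 and 55740001–55750000, 7.03 and 5.65), chromosome 15 (47180001–47190000 and 47300001–47310000, 5.60 and 5.84) and chromosome 16 (20560001–20570000 and 20700001–20710000, 6.18 and 5.58). Of these 10, 5 had neither anchor bin in the 0 dpa list, where the share over all gained contacts was 37.6%. A contact on chromosome 3 between 950001–960000 and 1090001–1100000 was stronger still, at 12.2 (6.85 to 20.2) and 12.7 (7.38 to 20.3) times expected, but rested on 15 and 17 counts against expected counts of 1.23 and 1.34. It was named after its values were seen.

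Set beside all 1 dpa contacts of at most 200 kb, gained contacts held a larger share of the shortest and longest spans and a smaller share of those from 30 to 100 kb. The median span was 70 kb, with quartiles of 20 and 120 kb. Contacts of 20 kb, the shortest span in the lists, made up 28.2% of them (95% exact interval 24.8 to 31.7), against 43.8% of the contacts called at 1 dpa alone and 14.3% of those called at all times. Those of 30 to 50 kb made up 15.9%, against 20.3% and 26.2%. From 160 to 200 kb the shares were 13.6%, 8.17% and 11.1%. The share of 1 dpa contacts that were gained was 6.64% (5.77 to 7.60) at 20 kb, 2.81% (2.31 to 3.37) from 30 to 50 kb and 5.83% (4.74 to 7.08) from 160 to 200 kb, so it was lowest in between.

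The share of 1 dpa contacts that were listed again at 4 dpa was higher for longer spans, both for newly listed contacts and for those with a 0 dpa counterpart. Of the 1761 contacts of at most 200 kb without a 0 dpa counterpart at 1 dpa, 39.5% (37.2 to 41.9) had a 4 dpa counterpart and so are the gained contacts. That share was 29.6% (26.1 to 33.2) at 20 kb, 33.9% (28.8 to 39.4) from 30 to 50 kb, 48.0% (42.6 to 53.4) from 60 to 100 kb, 52.7% (46.2 to 59.1) from 110 to 150 kb and 52.2% (44.7 to 59.6) from 160 to 200 kb. The intervals cover counting error and treat contacts as independent. Among the 13769 contacts that did have a 0 dpa counterpart, 91.1% also had one at 4 dpa, from 78.5% (76.8 to 80.2) at 20 kb through 90.5% from 30 to 50 kb and 94.5% from 60 to 100 kb to 96.2% (95.1 to 97.1) from 160 to 200 kb. Expected counts at 4 dpa were higher than at 1 dpa, and their part in the shorter spans was not tested.

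**Figure D2:**
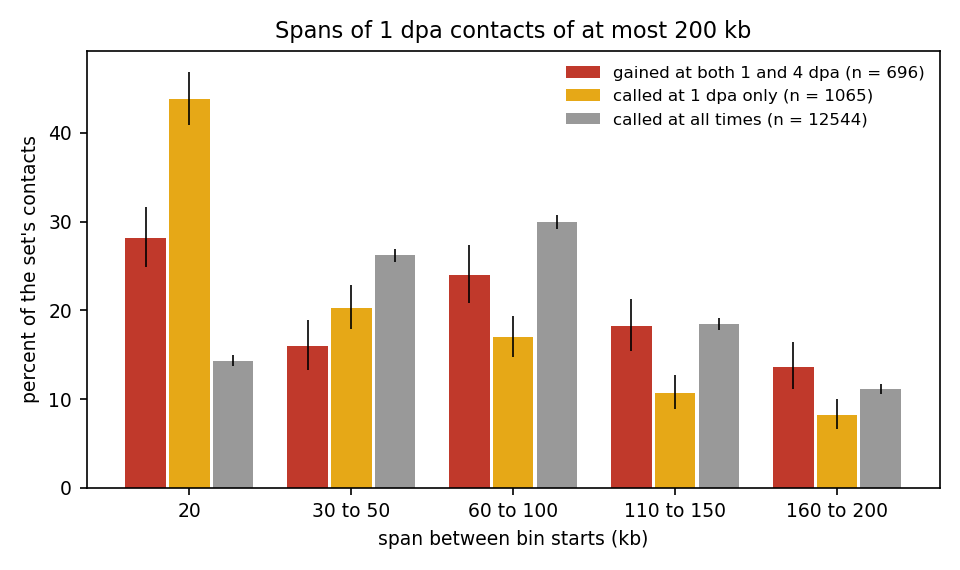
Percent of contacts (y) in 5 classes of span between bin starts (x, kb) for the 696 gained contacts (red), the 1065 called at 1 dpa alone (yellow) and the 12544 called at all times (grey), all of at most 200 kb. Bars show exact 95% binomial intervals for counting error. The gained contacts hold 28.2% at 20 kb, between the other sets, and 13.6% from 160 to 200 kb.

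Many gained contacts lay beside a contact already called in uninjured fins. By the larger of the 2 anchor shifts, the nearest 0 dpa contact was 20 kb away for 251 (36.1%), the smallest distance the rule allows, and 30 kb away for another 83 (11.9%). It was 60 to 100 kb away for 164 (23.6%) and farther for 110 (15.8%). These distances were not counted for other 1 dpa contacts, so the shares are a description and cannot be called particular to the gained contacts. The most isolated contact, on chromosome 22 between 7950001–7960000 and 8050001–8060000, was 450 kb from any 0 dpa contact, with 17 counts at 1 dpa and 23 at 4 dpa, at 5.40 and 5.92 times expected. Members just inside the limit, with a 0 dpa contact within 20 kb, had a median strength of 3.70. The 2377 contacts just outside it, left out by a 0 dpa contact 10 kb away with none in the same bins, had 3.52. At the limit on span, the 19 gained contacts of 200 kb had a median strength of 5.04 and the 14 of 210 kb that met the other conditions had 4.76. Where the 4 dpa counterpart was exactly 10 kb off, the 214 members had 3.52 at 1 dpa, and the 245 contacts left out by a nearest 4 dpa contact 20 kb away had 3.49.

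The 696 gained contacts fell in 510 clusters of neighbouring calls in the 1 dpa list, singletons counted as their own, and 584 (83.9%) belonged to a cluster with no 0 dpa counterpart in any of its pairs. The 255 singletons among them have none by the rule. Of the 441 in larger clusters, 329 (74.6%, 70.3 to 78.6) belonged to a cluster without a 0 dpa counterpart. Contacts called at 1 dpa alone gave 401 of 498 (80.5%, 76.8 to 83.9). The other 112 gained contacts lay in clusters that were also called in part at 0 dpa. Contacts of a cluster share this trait, so these intervals, which treat contacts as independent, are too narrow. Counted by clusters, singletons included, 415 of the 510 had no 0 dpa counterpart. The larger clusters of the sets were not compared by clusters, so a difference between the sets is not shown. When the 4 dpa cluster was required to have no 0 dpa counterpart as well, 521 (74.9%) remained. Singletons made up 36.6% of the gained contacts, 53.2% of those called at 1 dpa alone and 10.8% of those called at all times. Broad clusters, as the authors typed them, held 2.44%, 0.563% and 24.0%. In the same bins, 200 gained contacts (41.5%) lay in a larger cluster at 4 dpa than at 1 dpa and 82 (17.0%) in a smaller one, where contacts called at all times gave 49.9% and 23.7%. The 4 dpa list was the longer of the pair.

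A large share of the gained contacts joined bins that had no called contact in uninjured fins. Of the 696, 262 (37.6%, 34.0 to 41.4) had neither anchor bin in the 0 dpa list, 290 (41.7%) had 1 and 144 (20.7%, 17.7 to 23.9) had both. Contacts called at 1 dpa alone gave 45.1%, 34.2% and 20.8%. Of the contacts called at all times, 92.3% had both. Allowing a bin to either side, 174 gained contacts (25%) still had neither anchor at 0 dpa. Having no 0 dpa counterpart limits these shares, which is why the contacts called at 1 dpa alone, chosen in the same way against 0 dpa, are the closer comparison.

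These 3 kinds of gained contact had median spans of 30 to 80 kb and median strengths of 3.48 to 3.75. Strength moves with span, and the kinds were not compared within span classes. With neither bin at 0 dpa, the median span was 30 kb, the median strength 3.48 at 1 dpa and the nearest 0 dpa contact 80 kb away. With 1 bin at 0 dpa, the values were 80 kb, 3.64 and 20 kb. With both, they were 80 kb, 3.75 and 20 kb. The rule ties the nearest distance to the bins, so its order is not a result of its own.

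The gained contacts used 1216 distinct anchor bins, of which 724 (59.5%) were not in the 0 dpa list, against 1219 of 1920 (63.5%) for contacts called at 1 dpa alone and 16.9% of the 17731 anchor bins of all 1 dpa contacts of at most 200 kb. Of the 724, 594 (82.0%) were anchors in the 4 dpa list. The rule requires a 4 dpa contact within 1 bin, so this share is high by construction. For contacts called at 1 dpa alone, 140 of the 1219 such bins (11.5%) were anchors at 4 dpa. That share is low by construction, since these contacts were chosen to have no 4 dpa counterpart, so the 2 shares are not a result. The 2 anchor bins of a gained contact had on average 2.13 called contacts in all in uninjured fins, 4.35 at 1 dpa and 4.66 by 4 dpa, the gained contact being counted for each of its bins at 1 dpa. For contacts called at 1 dpa alone, which also count for each of their bins at 1 dpa, the averages were 2.24, 4.10 and 2.20. Those called at all times gave 6.98, 6.08 and 6.39. The rule adds the gained contact at 1 dpa and asks for a counterpart at 4 dpa, so a rise is built in. A rise at 1 dpa and a fall by 4 dpa are likewise built in for contacts called at 1 dpa alone.

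**Figure D3:**
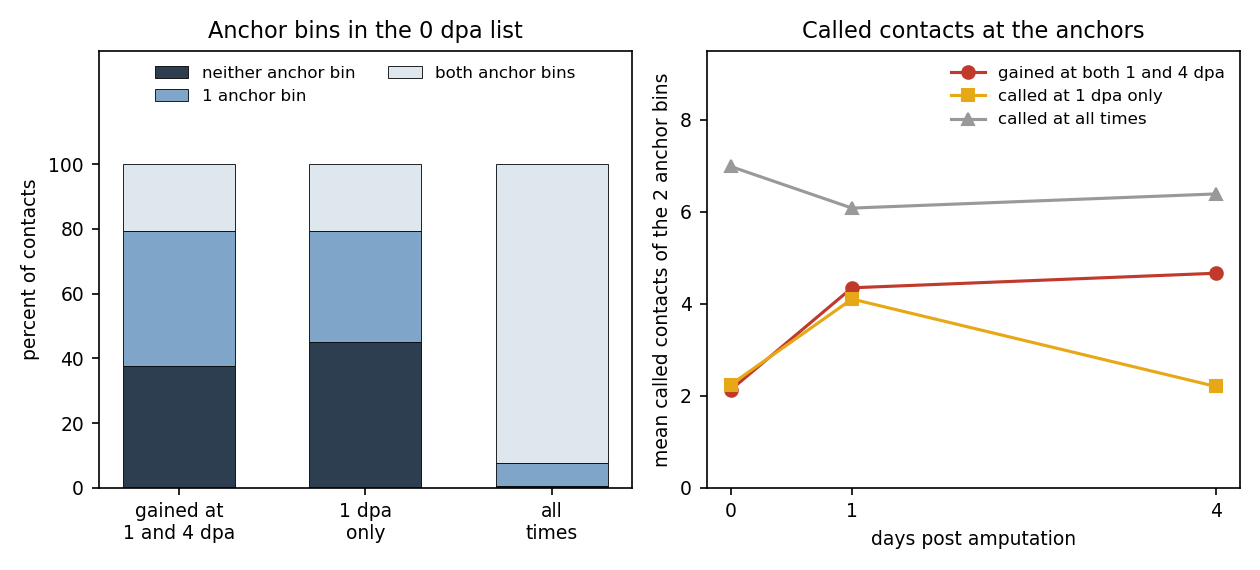
Left, percent of contacts (y) with neither, 1 or both anchor bins in the 0 dpa list, for the 696 gained contacts, the 1065 called at 1 dpa alone and the 12544 called at all times. Right, mean number of called contacts of the 2 anchor bins (y) against days post amputation (x) for the same sets; for gained contacts it is 2.13, 4.35 and 4.66.

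Where an anchor was already in use at 0 dpa, the place of the gained contact among its 0 dpa contacts was counted. There were 578 such uses of a 0 dpa anchor. In 145 (25.1%) the anchor had no 0 dpa contact on the side of the gained one. In 174 (30.1%) the gained contact went beyond its farthest 0 dpa contact on that side, in 206 (35.6%) it was nearer than the nearest, and in 53 (9.17%) it lay between others. The 492 distinct anchors of this kind had 2.47 called contacts on average in uninjured fins, 3.08 at 1 dpa and 3.58 by 4 dpa. Of these, 315 had more at 4 than at 0 dpa, 64 had fewer and 113 as many. The gained contacts themselves enter the later counts. Neither the shares of reach nor these counts were taken for other contacts, so they are a description and cannot be called particular to the gained contacts.

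Most anchors took part in a single gained contact. Of the 1216 bins, 1056 held 1, 146 held 2, 13 held 3 and 1 held 5. Joined by shared or adjacent bins, the members formed 482 groups, 321 of them of 1 contact, and 375 members (53.9%) were in groups of 2 or more. Neighbouring bins share fragments and signal, so the members of a group are not independent contacts.

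The bin with 5 gained contacts was 34270001–34280000 of chromosome 12. In uninjured fins it had 3 called contacts, with bins 20 kb to its left and 90 and 100 kb to its right, at 3.61, 4.30 and 3.68 times expected. At 1 dpa it had 9, and the contact 20 kb to the left was not among them. That contact was listed again at 4 dpa, at 2.40 times expected. The gained ones joined it to bins 80 kb to the left (23 counts, 3.87 times expected) and 20, 30, 60 and 70 kb to the right (43, 36, 45 and 24 counts, at 2.11, 2.60, 4.70 and 3.33 times expected). Contacts 40 and 80 kb to the right were also listed at 1 dpa and not at 0 dpa in those bins, but are not gained contacts, and none was listed at 50 kb. The contact 100 kb to the right was at 9.17 times expected (7.01 to 11.8) at 1 dpa and 7.79 (5.89 to 10.1) at 4 dpa. At 4 dpa the contacts at 20, 60 and 70 kb were listed in the same bins, at 2.36, 3.76 and 2.78 times expected. Those at 80 kb to the left and 30 kb to the right had their counterparts 1 bin away. For the one at 30 kb this was the contact at 20 kb, itself a gained contact. The anchor had 7 contacts in all at 4 dpa. The contact at 60 kb was the strongest of the 5 at 1 dpa, with 45 counts then and 39 at 4 dpa. At 1 dpa the contacts at 60 and 70 kb lay in a broad cluster of 9 calls that was also called in part at 0 dpa.

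**Figure D4:**
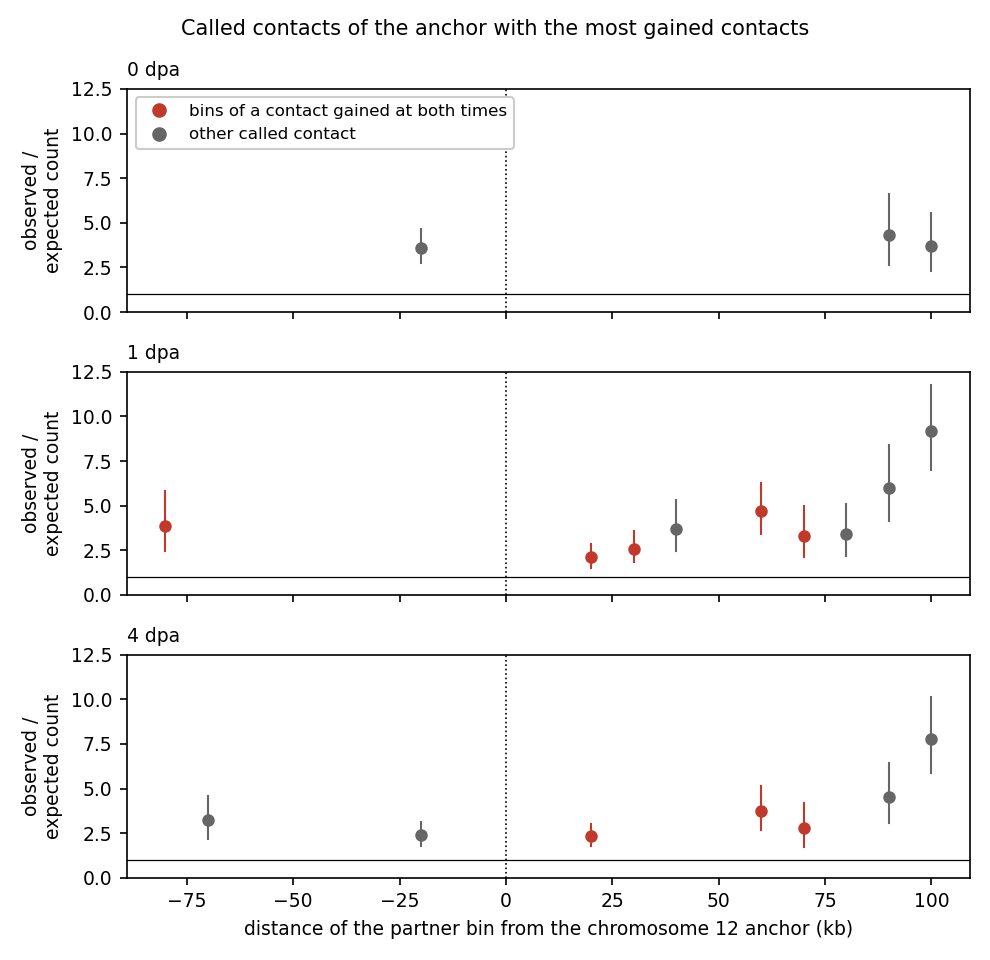
Observed over expected count (y) of each called contact of the chromosome 12 bin with 5 gained contacts, against the distance of its partner bin (x, kb), at 0, 1 and 4 dpa from top to bottom. Red points are bins of gained contacts, grey points other called contacts, lines exact 95% Poisson intervals for counting error, and the horizontal line marks the expected count. There are 3 contacts in uninjured fins, 9 at 1 dpa, without the one 20 kb to the left, and 7 at 4 dpa, with it.

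Of the 13 bins with 3 gained contacts, the 4 with the most summed counts were not all new to the lists. The bin at 35600001–35610000 of chromosome 3 had no contact at 0 dpa and 3 at both later times. Its gained contacts, with bins 30 and 20 kb to the left and 50 kb to the right, were 2.31, 3.09 and 2.73 times expected at 1 dpa. At 4 dpa its contacts were 40 and 30 kb to the left and 50 kb to the right, at 2.83, 2.91 and 2.37 times expected. The gained contact at 20 kb had the 4 dpa contact at 30 kb as its counterpart. The bin at 4050001–4060000 of chromosome 23 had 1 contact at 0 dpa, 70 kb to the left at 3.37 times expected, which was not listed later. At 1 dpa it instead had contacts 90, 30 and 20 kb to the left, at 3.75, 3.17 and 2.23 times expected, and at 4 dpa those at 90 and 30 kb, at 4.47 and 2.66. The bins at 27450001–27460000 of chromosome 6 and 45570001–45580000 of chromosome 5 had no contact in uninjured fins, 3 at 1 dpa and 2 by 4 dpa. On chromosome 6 the contact 120 kb to the left was the strongest, at 4.33 and 3.17 times expected. On chromosome 5 all were within 40 kb and at most 2.88 times expected.

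The largest group held 6 contacts between 45380001 and 45600000 of chromosome 20. Their counts at 1 dpa were low, from 12 to 18, at 3.96 to 5.04 times expected, and 2 of the 6 lay in a cluster with a 0 dpa counterpart. At 4 dpa 2 of them were in the same bins, at 4.05 and 3.88 times expected. A group of 5 between 35570001 and 35660000 of chromosome 3 included the anchor described above. Its counts at 1 dpa were 32 to 50, at 2.31 to 3.09 times expected over spans of 20 to 50 kb, and none of its clusters had a 0 dpa counterpart. The other group of 5 was that of the chromosome 12 anchor.

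Gained contacts were found on each of the 25 chromosomes, from 18 on chromosome 9 to 48 on chromosome 3. As a share of 1 dpa contacts of at most 200 kb, 24 chromosomes lay between 3.47% and 5.87%. Chromosome 21 had 35 of 415, or 8.43% (5.94 to 11.5), against 4.37% (4.05 to 4.71) for all others together. Counted by clusters it stood closer, with 22 of 179 clusters (12.3%) holding a gained contact against at most 11.3% elsewhere. Its share of contacts called at 1 dpa alone, 6.99%, was inside the range of the other chromosomes (4.76% to 8.99%), as was its share of 0 dpa contacts without a later counterpart (20.2%, against 11.1% to 22.8%). Chromosomes of a list share its pools and depth, so they are not replicates, and chromosome 21 was singled out after its value was seen.

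**Figure D5:**
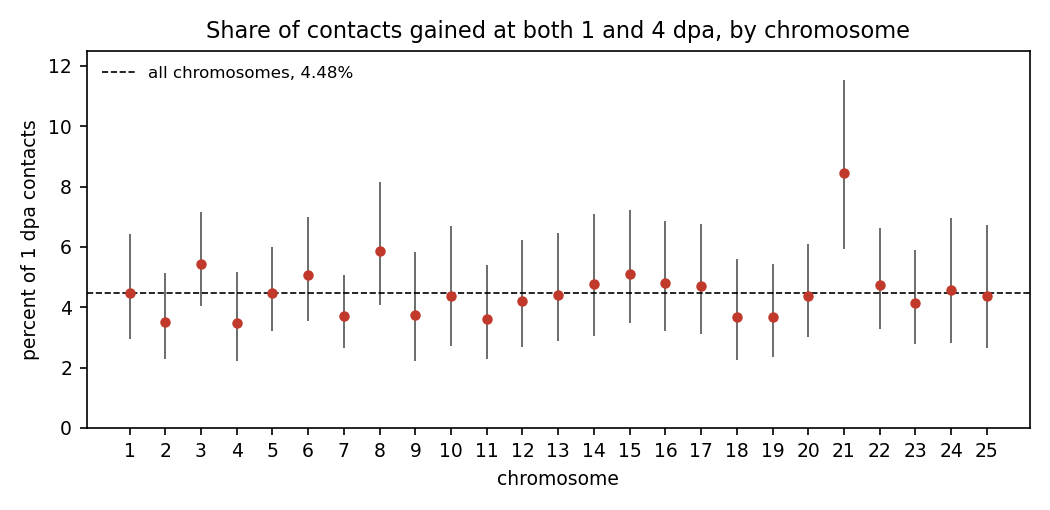
Gained contacts as a percent of 1 dpa contacts of at most 200 kb (y) on each chromosome (x), with exact 95% binomial intervals for counting error. The dashed line is the share over all chromosomes, 4.48%. Chromosome 21 is at 8.43% and the others are at 3.47% to 5.87%.

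The lists of calls were of unequal length, with 28421, 18712 and 26988 contacts at 0, 1 and 4 dpa in turn, and sequencing depth is unknown. Under the same matching and span limit, 1225 of the 1 dpa contacts (7.89%) had a 0 dpa counterpart and none at 4 dpa, and 2889 of the 4 dpa contacts (13.5%) had a 0 dpa counterpart and none at 1 dpa. Contacts missing from the 0 dpa list alone, the gained contacts, were 696 of the 1 dpa contacts (4.48%). Counted from the 4 dpa list they were 893 (4.18%). In either count they were the fewest of the 3 kinds seen in exactly 2 lists. The list they are missing from is the longest. With lists of equal length the gained contacts numbered 987. The other kinds were not recounted in that setting, so the part of list length in this order was not tested.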

How the data were processed

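Contacts of caudal fins were analysed from 3 deposited lists, 1 per time point, whose times were taken from their names, since no column names a time. Per the file headers, a row holds 2 bins of 10 kb with their deposited contact count, the expected count (a signal from the background model of the authors), an FDR (a q-value by the authors), a cluster with its size and the deposited −log10 p of the cluster. BWA and danRer11 are named per the submitters' processing notes. Not given in the sources used here are the caller, the model's terms and how pools were combined. Counts were 12 or more throughout.

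Matching, strengths and exact binomial and Poisson intervals (95%, counting error only) were computed in Python 3.11.15 with pandas 2.3.3, numpy 2.4.6, scipy 1.17.1 and networkx 3.6.1. The matching and the ratio interval were tested on simulated lists. No test between time points was possible, as no replicate values were used, and numbers of called contacts move with depth, which is unknown. Bins took the place of genes in the naming rule: the 10 strongest contacts with at least 20 counts at both times (1 per cluster), the 5 anchors with the most members (ties by summed count, a choice made after the values were seen), the 3 largest groups, and the 4 highest and 4 lowest ratios. Gene, promoter and motif results were planned and not run, because no danRer11 annotation or sequence was used. The members and tests were chosen with earlier results of these data known.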

Additional observations from a re-analysis of the deposited data

How the results depend on the processing

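No paired analysis was possible because each time point has 1 list and no values per pool, and for the same reason no replicate could be left out. The number of gained contacts, 696, was 1543 with identical bins required, 445 with no 0 dpa contact within 20 kb, 313 with an FDR of at most 0.0001 at 1 and 4 dpa, 334 without singletons and 421 with cluster summits alone. Under the other 9 settings it was within 1.5 times, from 468 with an FDR limit of 0.0001 in every list to 987 with lists of equal length. Of the 696, 482 were also found with identical bins, 445 with anchors within 20 kb and 586 with lists of equal length. Identical bins were required at 0 dpa as well, so a 0 dpa contact 1 bin away no longer left a contact out.

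The median span of 70 kb became 50 kb with anchors within 20 kb, at the lower FDR at 1 and 4 dpa and with summits alone, 30 kb with at least 20 counts and for spans of at most 100 kb, 90 kb without singletons, and 100 kb with no limit on span and without spans of 20 kb. Leaving out spans of 20 kb or chromosome 21 was chosen after seeing the data. The median ratio of 4 over 1 dpa strength, 0.917, was 0.991 with lists of equal length, 0.895 with summits alone and 0.977 when centred on all contacts, and it turned to 1.2 with raw counts, where the higher expected counts at 4 dpa are not divided out. The share with both anchor bins at 0 dpa, 20.7%, was 48.2% with identical bins, 14.5% with anchors within 20 kb, 13.0% with no 0 dpa contact within 20 kb and 24.2% without spans of 20 kb. The share in clusters without a 0 dpa counterpart, 83.9%, was 27.9%, 97.9%, 98.2% and 79.4% under these settings in turn. It was 94.6% at the lower FDR at 1 and 4 dpa, 88.3% with at least 20 counts, 75.7% with lists of equal length, 72.2% without singletons, 95.5% with summits and 76.9% starting from the 4 dpa list. For the share in clusters, a 0 dpa counterpart was sought within 10 kb under every setting. With identical bins, only the 482 shared with the main set could lie in clusters without a 0 dpa counterpart, so that low share is by construction. With 20 kb, contacts nearer to a 0 dpa contact were left out, which raises the share by construction. Causes were not tested except where a setting's own construction gives them, as for limits on span, summits, singletons and these matching distances. Counts of single contacts were low: the 482 in the same bins had medians of 27 at 1 dpa and 31 at 4 dpa. Of their ratios, 3 had an interval that left out 1.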
